A study of Mus musculus with 54 samples.

Results

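Prok2 and Prokr2 encode the secreted peptide prokineticin 2 and its receptor, and they are described here across 6 timepoints of the day in the suprachiasmatic nucleus (SCN), the hypothalamic nucleus that sets daily rhythms in mammals. The members are the rows of the read count table whose Ensembl identifiers map to these symbols, which makes 2 genes of 30031 in the table. SCN tissue was cut out by laser-capture microdissection from male C3H/HeH mice aged 10 to 12 weeks and kept in a 12:12 light/dark (LD) cycle, and RNA was amplified and sequenced. Brains were taken at ZT2, ZT6 and ZT10, with lights on, and at ZT14, ZT18 and ZT22, with lights off, where zeitgeber time (ZT) counts hours from lights on. Each timepoint had 3 replicates (A, B and C), each replicate was a pool of tissue from 5 mice, and its reads from 3 lanes were combined, so 54 lane samples gave 18 replicates. All animals had the same strain, sex and lighting, the column names of the tables mark every replicate as WT (wild type), and no treatment or genotype was compared, so light and time of day cannot be told apart.

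Prokineticin 2 is released by SCN neurons and is known as an output signal that carries time of day from the SCN to its target areas. It binds prokineticin receptor 2, a G protein-coupled receptor present in the SCN itself and in many of its targets, which signals mainly through Gq proteins and phospholipase C to release calcium from internal stores. Transcription of Prok2 is known to be driven by the clock factors CLOCK and BMAL1 (the product of Arntl) through E-boxes, short DNA motifs with the letters CACGTG. The related peptide prokineticin 1 and receptor 1, encoded by Prok1 and Prokr1, act mainly outside the brain.

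The gene counts of a replicate summed to 15412981 reads at the least and 35820945 at the most (median 25075231). The defining markers of the labelled tissue were present. All 11 genes of an SCN neuron list were detected, with mean levels across the timepoints of 45.8 to 182 CPM for Six6 and 147 to 230 CPM for Lhx1, developmental regulators of the SCN (CPM, counts scaled to the size of the library after TMM normalization). The replicates fell into 3 pairs of timepoints, ZT2 and ZT22, ZT6 and ZT10, and ZT18 and ZT14. Of the 5 other replicates with the most similar expression, all 5 came from the same pair of timepoints for 8 of the 18 replicates and 4 of the 5 for the other 10. The study names a sequencing batch and judged batch effects to be minimal from the timing of its key clock genes. Which libraries shared a batch is not given in the sources used here. A batch and the time of day thus cannot be told apart between these pairs. Comparisons inside a pair (ZT2 with ZT22, ZT10 with ZT6, ZT18 with ZT14) are therefore given beside the others. The ZT6 and ZT10 replicates also stood apart in a second way. In the other deposited table, from which whole reads could be recovered, between 8.7% and 12.1% of the genes with reads had the same number of reads there as in the count table, against at least 92.7% in the other 12 replicates.

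Prok2 (ENSMUSG00000030069) lies on the minus strand of GRCm38 (mm10) at chr6:99711299-99726392. It has 4 annotated transcripts, whose exons cover 1917 bases together, with a longest coding sequence of 384 bases. The long non-coding gene Gm26748 overlaps it on the other strand but shares no exon with it. The 250 bases just before its RefSeq start (chr6:99726393-99726642, minus strand) are shown because Prok2 is a known target of E-box transcription, with CACGTG in capitals.

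Prok2: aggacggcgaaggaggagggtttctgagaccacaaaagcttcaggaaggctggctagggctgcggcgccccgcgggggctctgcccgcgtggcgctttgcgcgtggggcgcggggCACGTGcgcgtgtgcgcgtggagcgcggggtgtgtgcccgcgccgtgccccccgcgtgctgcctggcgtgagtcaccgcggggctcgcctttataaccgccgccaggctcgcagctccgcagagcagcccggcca

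The motif occurred once, from 135 to 130 bases before the start. It reads the same on both strands and was found in 6.02% of 32851 RefSeq (GRCm38.p6) windows of the same length. The stretch was rich in G and C, which made up 73.6% of its bases against a median of 52.4% over all windows, and it held 34 CG pairs. The related letters CACGTT (present in 3.85% of all windows), the D-box TTATGTAA (0.819%) and the cyclic AMP response element TGACGTCA (1.55%) did not occur in it on either strand.

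Prokr2 (ENSMUSG00000050558) lies on the minus strand at chr2:132337733-132385447. It has 5 annotated transcripts, with 7919 exon bases together and a longest coding sequence of 1143 bases, and no other gene overlaps it. The matching 250 bases before its start (chr2:132385448-132385697, minus strand) are shown for comparison.

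Prokr2: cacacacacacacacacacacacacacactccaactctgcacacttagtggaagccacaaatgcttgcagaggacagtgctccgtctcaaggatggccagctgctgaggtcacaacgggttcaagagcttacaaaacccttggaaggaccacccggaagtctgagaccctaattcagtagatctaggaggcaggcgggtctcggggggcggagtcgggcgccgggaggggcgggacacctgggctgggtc

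None of these 4 motifs occurred in the Prokr2 window, which says only that these letters are not in it. Its G and C content was 59.2%, with 10 CG pairs.

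Prok2 transcripts were abundant in the light phase and scarce in the dark. Its mean level rose from 2.26 CPM at ZT18 to 237 CPM at ZT6, a 103-fold difference in the fitted model, and every light replicate lay above every dark replicate. At ZT2, 1364, 3896 and 3608 reads (replicates A, B and C) gave 77.1, 168 and 139 CPM. At ZT6, 6985, 6045 and 2587 reads gave 303, 286 and 122 CPM. These were the highest levels, although ZT6 replicate C lay within the range of ZT2.

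At ZT10, 1635, 1749 and 1845 reads gave 79.3, 75.9 and 87.1 CPM, the closest agreement of any timepoint. At ZT14, 292, 259 and 171 reads gave 8.14, 7.52 and 4.70 CPM. The drop from ZT10 thus left no overlap between these timepoints. At ZT18, 56, 115 and 21 reads gave 1.79, 3.69 and 1.28 CPM. The 21 reads of ZT18 replicate C correspond to a share of 0.891 to 2.08 CPM before TMM scaling (95% Wilson interval, counting error only), so even the lowest replicate was above the level that 0 reads would allow (0.195 CPM at that depth, for 3 counts). At ZT22, 85, 233 and 380 reads gave 3.08, 8.56 and 13.6 CPM, a 4.42-fold spread within the timepoint and the widest of the 6. The lowest light replicate (75.9 CPM, ZT10 B) was far above the highest dark replicate (13.6 CPM, ZT22 C). Of 18941 genes tested, 35 (0.185%) had all 9 light replicates above all 9 dark replicates.

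**Figure D1:**
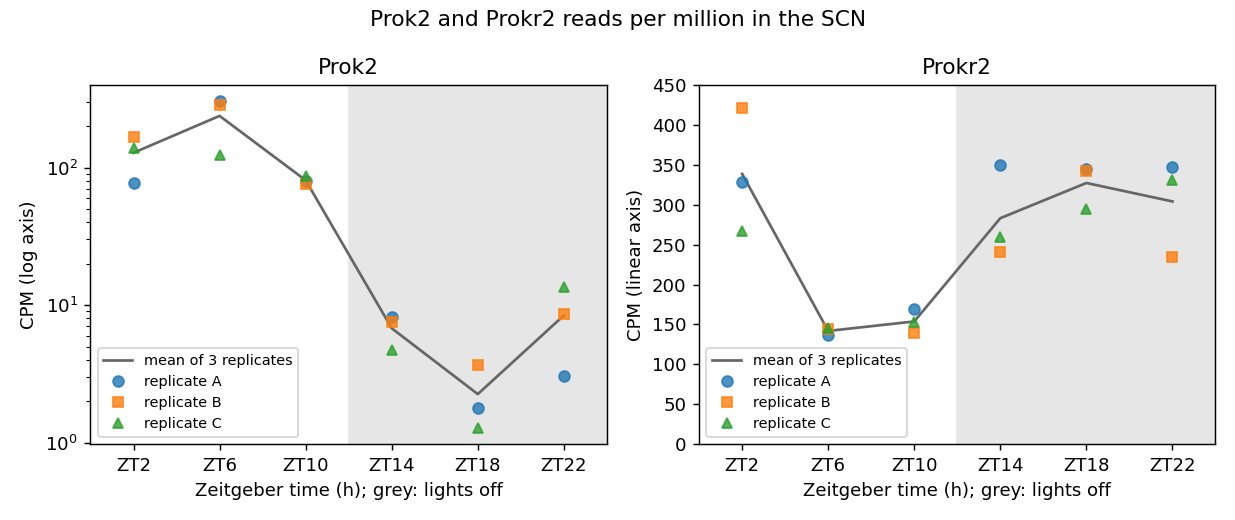
TMM-scaled CPM of Prok2 (log axis) and Prokr2 (linear axis from 0) at each zeitgeber time, with 1 point per replicate and a line through the means of 3 replicates. Prok2 lies between 75.9 and 303 CPM in the light replicates and between 1.28 and 13.6 CPM in the dark ones, while Prokr2 is lowest at ZT6 and ZT10.

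The levels of Prok2 differed between timepoints (edgeR quasi-likelihood F-test, adjusted p = 5.71e-08, rank 175 of 18941 genes by p). Over all genes, 44.0% passed this test, so passing it alone does not set a gene apart. The range of the 6 timepoint means was 6.69 on the log2 scale, the 30th widest of 14149 genes with a mean of at least 1 CPM, whose median range was 1.48. The rhythm test JTK_CYCLE, with its exact null distribution, gave p = 1.22e-06 with a peak at ZT6, against a background of 29.9% of genes that passed both it and the time test. A fitted 24 hr cosine put the peak at ZT5.78 ± 0.23 hr (SE) and the amplitude at 3.52 ± 0.22 on the log2 CPM scale (limma, adjusted p = 5.96e-07).

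By mean level the timepoints ran ZT6 (237 ± 99.8 CPM, SD, n = 3 here and throughout), ZT2 (128 ± 46.3), ZT10 (80.8 ± 5.72), ZT22 (8.42 ± 5.27), ZT14 (6.79 ± 1.83) and ZT18 (2.26 ± 1.27). Only 1 pair of neighbours in this order, ZT10 and ZT22, was separated by the test. ZT10 exceeded ZT22 by 3.26 ± 0.49 (log2, SE; adjusted p = 7.69e-05, edgeR), a comparison in which 26.4% of all genes passed. The difference of ZT6 from ZT2 was 0.89 ± 0.45 (95% interval -0.05 to 1.83, adjusted p = 0.134, edgeR, 33.8% of genes past the threshold) and that of ZT10 from ZT2 was -0.66 ± 0.45 (-1.60 to 0.27, adjusted p = 0.294, edgeR, 29.0%). ZT22 and ZT14 differed by 0.31 ± 0.46 (-0.66 to 1.28, adjusted p = 0.723, edgeR, 19.1%).

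Around the day, Prok2 fell by 3.57 ± 0.49 on the log2 scale from ZT10 to ZT14, an 11.9-fold drop across lights off (edgeR, adjusted p = 1.06e-04, 16.8% of genes). With libraries scaled to the summed SCN neuron markers, described with the other marker lists, it fell by 2.59. From ZT18 to ZT22 it rose by 1.86 ± 0.49, a 3.64-fold rise before lights on (edgeR, adjusted p = 0.0127, 18.1%). This call was lost without ZT18 replicate A (edgeR, adjusted p = 0.0531) and without ZT22 replicate C (edgeR, adjusted p = 0.096).

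From ZT22 to ZT2, Prok2 rose by 3.93 ± 0.50 (95% interval 2.87 to 4.98), a 15.2-fold rise across lights on (edgeR, adjusted p = 0.00741). Both timepoints belong to the same pair of similar timepoints, and Prok2 was among only 6 genes (0.0317%) that passed in this comparison. Without ZT22 replicate B its adjusted p was 0.0744 (edgeR). The other comparisons inside a pair were not past the threshold. Prok2 differed by -1.55 ± 0.45 between ZT10 and ZT6 (edgeR, adjusted p = 0.311, unadjusted p = 0.0031, 0.0475% of genes past the threshold) and by -1.55 ± 0.49 between ZT18 and ZT14 (edgeR, adjusted p = 0.148, 0.570%). In both, the 95% interval of the difference lay below 0 (-2.51 to -0.60 and -2.58 to -0.53), and DESeq2 called both.

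The widest planned comparison, ZT6 against ZT18, gave 6.68 ± 0.58 (edgeR, adjusted p = 1.41e-06, 20.7% of genes), and ZT2 against ZT14 gave 4.24 ± 0.51 (edgeR, adjusted p = 9.46e-06, 23.8%). Light against dark, each the mean of 3 timepoints, gave 4.73 ± 0.30 (edgeR, adjusted p = 1.41e-08), where 23.8% of genes passed, 1810 of them higher in light and 2707 lower. In the recovered reads, Prok2 had between 68.7% and 79.1% of its counted reads at ZT6 and ZT10 and exactly the same reads elsewhere. The ZT6 against ZT18 difference was 6.505 with these reads, and no call of either gene changed.

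Prokr2 varied much less, and its pattern was a dip at ZT6 and ZT10, in the middle and late light phase. Its mean level was 142 CPM at ZT6 and 154 CPM at ZT10, and between 283 and 339 CPM at the other timepoints. At ZT2, 5805, 9773 and 6930 reads gave 328, 421 and 267 CPM. At ZT6, 3141, 3050 and 3064 reads gave 136, 144 and 145 CPM. At ZT10, 3478, 3219 and 3239 reads gave 169, 140 and 153 CPM. These 6 replicates were the lowest of the 18 and did not overlap the rest.

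At ZT14, 12524, 8295 and 9430 reads gave 349, 241 and 259 CPM. At ZT18, 10793, 10652 and 4820 reads gave 345, 342 and 294 CPM. At ZT22, 9567, 6376 and 9246 reads gave 347, 234 and 331 CPM. The ranges of ZT2, ZT14, ZT18 and ZT22 all overlapped, and the lowest of these 12 replicates (234 CPM, ZT22 B) was above the highest at ZT6 and ZT10 (169 CPM). The same separation, with every ZT6 and ZT10 replicate below all others, was found in 709 genes (3.74%).

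Prokr2 also passed the time test (edgeR, adjusted p = 6.09e-05, rank 1760 of 18941). Its range of timepoint means was 1.23 on the log2 scale, and 38.0% of the 14149 genes with a mean of at least 1 CPM had a smaller range. By mean level the timepoints ran ZT2 (339 ± 77.3 CPM), ZT18 (327 ± 28.7), ZT22 (304 ± 61.0), ZT14 (283 ± 58.1), ZT10 (154 ± 14.6) and ZT6 (142 ± 4.90). Among neighbours in this order, ZT2 and ZT18 differed by 0.05 ± 0.19 (edgeR, adjusted p = 0.889, 22.0% of genes past the threshold), ZT22 and ZT18 by -0.11 ± 0.19, and ZT22 and ZT14 by 0.10 ± 0.19. The 95% intervals of these 3 differences lay within -0.51 and 0.51. Only ZT14 and ZT10 were separated, by 0.88 ± 0.19 (edgeR, adjusted p = 0.00415), and ZT10 and ZT6 differed by 0.12 ± 0.19 (edgeR, adjusted p = 0.870).

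Prokr2 fell by 1.25 ± 0.19 on the log2 scale from ZT2 to ZT6, a 2.39-fold drop while lights were on (edgeR, adjusted p = 8.33e-05), and was 2.31-fold lower at ZT6 than at ZT18 (edgeR, adjusted p = 4.69e-04). ZT10 lay 0.98 ± 0.19 below ZT22 (edgeR, adjusted p = 9.23e-04). The difference of ZT2 from ZT14 was 0.26 ± 0.19 (edgeR, adjusted p = 0.371). Light minus dark was -0.64 ± 0.11 (edgeR, adjusted p = 4.80e-04), which averaged over a ZT2 level as high as those of the dark phase. JTK_CYCLE gave an exact p of 0.042 with a peak at ZT18, which did not remain under the threshold after adjustment over all genes (0.112). The fitted cosine had an amplitude of 0.63 ± 0.13 (log2) and a peak at ZT20.3 ± 0.77 hr (limma, adjusted p = 0.00359).

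The dip of Prokr2 coincides with the ZT6 and ZT10 libraries that stood apart from the rest. No comparison of Prokr2 inside a pair of similar timepoints passed the test. The other 4 timepoints, taken alone, were not separated by the time test for Prokr2 (edgeR, adjusted p = 0.735), which restates that the dip lies at the 2 timepoints left out and says nothing of its source. A batch and the time of day cannot be told apart here. In the recovered reads Prokr2 kept between 95.2% and 98.4% of its counted reads at ZT6 and ZT10, and its ZT6 minus ZT2 difference was -1.07 (edgeR, adjusted p = 3.35e-04).

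Markers of other cell types also differed between timepoints, not all in the same way. The summed level of 6 astrocyte markers was 1640 to 2304 CPM at ZT6 and ZT10 and 2703 to 5235 CPM in the other replicates, and all 6 passed the time test. Not every marker followed the sum. Aqp4 was lowest at ZT18 (135 CPM on average), and Gfap was higher at ZT10 (166 CPM) than at ZT2 (149 CPM). The sum of 6 oligodendrocyte markers was 1267 to 3030 CPM at ZT6 and ZT10 and 2136 to 6071 CPM elsewhere, ranges that overlap. Its highest means were 5249 CPM at ZT14 and 5411 CPM at ZT18, against 3043 CPM at ZT2 and 2643 CPM at ZT22. All 6 passed the time test, but Cnp was lowest at ZT2 (113 CPM) and Mag at ZT22 (14.8 CPM). The sum of the 11 SCN neuron markers was higher at ZT6 and ZT10, with 5393 to 6859 CPM there and 2355 to 4478 CPM elsewhere. Of the 11, 9 passed the time test, among them the rhythmic peptide genes Avp, Vip, Grp and Nms. Vipr2, also past the test, was lowest at ZT10 (183 CPM). None of the markers in these lists was at 0 throughout. The sum of 5 forebrain excitatory neuron markers averaged 16.9 CPM at ZT6, 40.7 at ZT18, 48.3 at ZT10, 58.4 at ZT2, 128 at ZT14 and 144 at ZT22. That of 12 neighbouring hypothalamic neuron markers averaged 186 CPM at ZT2, 218 at ZT6, 283 at ZT10, 331 at ZT18, 341 at ZT22 and 461 at ZT14. The sum of 6 microglia markers averaged 133 CPM at ZT6, 130 at ZT10 and 165 to 221 elsewhere. That of 5 endothelial cell markers averaged 82.3 CPM at ZT6, 90.1 at ZT10 and 109 to 140 elsewhere. Against these sums, Aif1 and Flt1 were highest at ZT6 and C1qa at ZT10. The sum of 5 neutrophil markers averaged 0.986 CPM at ZT14, its lowest, and 6.50 CPM at ZT6, its highest. The part of all these lists in the results for Prok2 and Prokr2 was not tested. In bulk tissue, fewer cells of a type and less RNA per cell cannot be told apart. The SCN neuron sum was highest at ZT6 and ZT10 (means of 6365 and 5790 CPM), and Vip alone gave 2756 CPM at ZT6. Scaling to this sum lowers every gene at these timepoints relative to the others, so the direction of the changes below follows from the scaling. When libraries were scaled to the summed SCN neuron markers, the Prokr2 differences grew, to -1.94 for ZT6 minus ZT2 (edgeR, adjusted p = 1.28e-06), 1.89 for ZT14 minus ZT10 (4.57e-06 adjusted) and -1.34 for light minus dark (2.28e-07 adjusted). Those of Prok2 shrank, to -2.59 for ZT14 minus ZT10 (edgeR, adjusted p = 7.40e-04), 2.43 for ZT10 minus ZT22 (0.00135 adjusted) and 4.03 for light minus dark (1.53e-07 adjusted), and ZT6 minus ZT2 was 0.21 (0.769 adjusted).

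**Figure D2:**
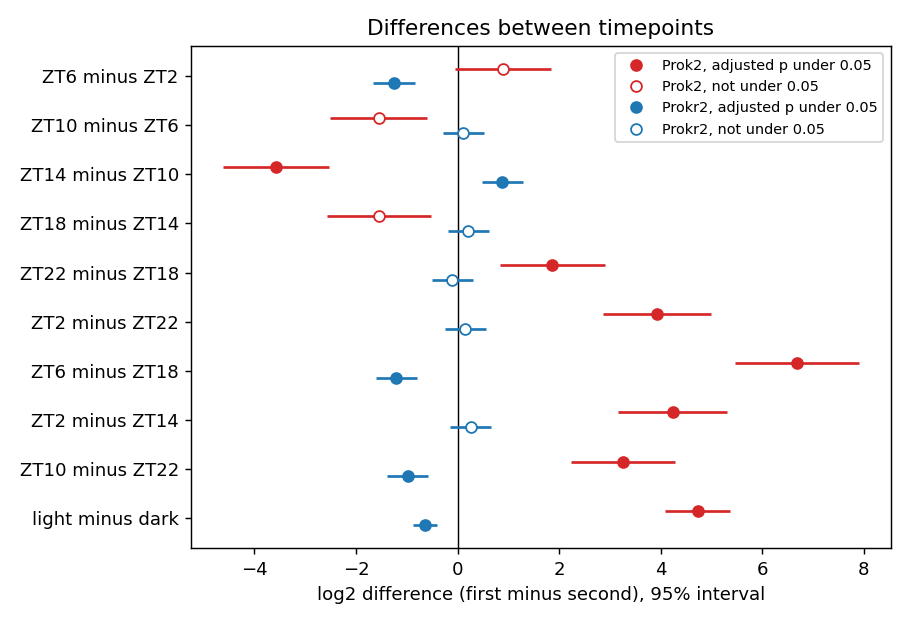
Log2 differences between timepoints, first minus second, for Prok2 (red) and Prokr2 (blue), with 95% intervals from the edgeR fit to all 18 replicates. Filled points have an adjusted p under 0.05, and Prok2 spans from -3.57 to 6.68 while Prokr2 stays between -1.25 and 0.88.

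The balance of ligand to receptor transcripts was far lower at the dark timepoints than at the light ones. It was taken as the log2 ratio of Prok2 to Prokr2 reads per kilobase of exon in the same replicate, which needs no scaling between libraries, and is given without a test. At ZT6 the ratios were 3.20, 3.03 and 1.80 (mean 2.68 ± 0.76), so Prok2 had 6.40 times the reads per kilobase of Prokr2. At ZT10 they were 0.96, 1.17 and 1.23 (mean 1.12 ± 0.14). At ZT2 they were -0.04, 0.72 and 1.10 (mean 0.59 ± 0.58), so in replicate A both genes were at about the same level per kilobase. At ZT2 the spread between replicates thus reached down to equal levels.

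In the dark the receptor prevailed in every replicate. The ratios were -3.38, -2.95 and -3.74 at ZT14 (mean -3.36 ± 0.39) and -5.54, -4.49 and -5.80 at ZT18 (mean -5.28 ± 0.69), where Prokr2 had 38.7 times the reads per kilobase of Prok2. At ZT22 they were -4.77, -2.73 and -2.56 (mean -3.35 ± 1.23), with replicate A close to the ZT18 values. Per kilobase the mean level of Prok2 was 124 CPM at ZT6 and 1.18 CPM at ZT18, and that of Prokr2 17.9 and 41.3 CPM. Which transcripts were present is not known from gene counts, and with coding length in place of exon length the ratios moved down by the same amount at every timepoint, to 2.21 at ZT6, 0.12 at ZT2 (lowest replicate -0.52) and -5.75 at ZT18. Whether ligand or receptor was ahead at ZT2 therefore depends on the replicate and the length used.

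**Figure D3:**
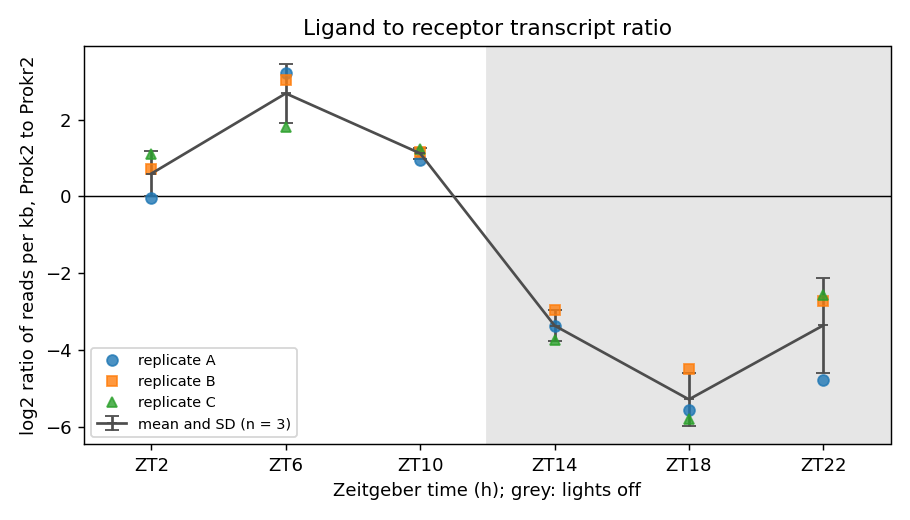
Log2 ratio of Prok2 to Prokr2 reads per kilobase of exon in each replicate, with the mean and SD of 3 replicates at each zeitgeber time. The line at 0 marks equal reads per kilobase, and the means lie at 2.68 for ZT6 and -5.28 for ZT18.

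The other prokineticin genes were near or at 0. Prok1 had 1 read in ZT18 replicate B and none in the other 17 replicates, where 0 reads allow a level of up to 0.0837 to 0.195 CPM. Its exons overlap A630076J17Rik on the other strand. Prokr1 had 12 reads in ZT2 replicate C, 44 in ZT14 replicate A, 3 and 6 in ZT18 replicates A and B, 1 in ZT22 replicate C and none in the other 13. Neither gene passed the filter of at least 1 read in more than 6 replicates. The readings therefore give no time course for them.

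The genes most like Prok2 over the 18 replicates, by Pearson correlation of log2 CPM among genes with a mean of at least 1 CPM, were St8sia6 (r = 0.957), Dbp (0.955), Rasl11b (0.941), Rgs16 (0.920) and Gcnt3 (0.904). The replicates share timepoints and similar libraries, so these values describe likeness and carry no test. Dbp, a clock-controlled transcription factor that binds D-boxes, was 105 ± 4.76 CPM at ZT6 and 12.9 ± 2.93 CPM at ZT18. Rgs16, a regulator that speeds the shut-off of G protein signalling, was 336 ± 43.0 CPM at ZT6 and 54.9 ± 7.97 CPM at ZT18. St8sia6, a sialyltransferase, was 56.8 ± 4.83 CPM at ZT6 and 12.2 ± 3.03 CPM at ZT18. Rasl11b, a small GTPase of the Ras-like group, was 223 ± 32.7 CPM at ZT6 and 23.2 ± 5.38 CPM at ZT18. Gcnt3, a glycosyltransferase, was much lower, with 5.50 ± 0.45 CPM at ZT6 and 0.117 ± 0.129 CPM at ZT18. All 5 had their highest mean at ZT6, and for the first 4 every light replicate was above every dark replicate. Their ranges of timepoint means, from 2.24 to 5.08 on the log2 scale, were smaller than the 6.69 of Prok2. CACGTG did not occur in the 250 bases before the start of St8sia6, Dbp, Rasl11b or Rgs16, which were the 4 of these genes found in the RefSeq windows. Among the genes most like Prokr2, described next, it occurred in Usp4, from 7 to 2 bases before the start, and in 1 of the 6 windows of Prkar1a, from 62 to 57 bases before it. Presence or absence here says only whether these letters are in the windows, and sequence outside them was not searched.

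The genes most like Prokr2 were Tada1 (r = 0.952), Gpr165 (0.945), Gm6768 (0.941), Prkar1a (0.940) and Usp4 (0.939). Tada1, a part of the SAGA transcription coactivator, was 117 ± 4.26 CPM at ZT2 and 47.4 ± 3.39 CPM at ZT6. Prkar1a, a regulatory subunit of protein kinase A, was 1502 ± 235 CPM at ZT2 and 735 ± 64.0 CPM at ZT6. Gpr165, an orphan G protein-coupled receptor, had the widest range of the 5, with 270 ± 76.1 CPM at ZT2 and 15.4 ± 6.503 CPM at ZT10. All 5 had their highest mean at ZT2 and their lowest at ZT6 or ZT10. None of the 5 was among the 5 most like Prokr2 by Spearman rank correlation, so this list is tied to the measure. For Prok2, 3 of 5 genes were shared.

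**Figure D4:**
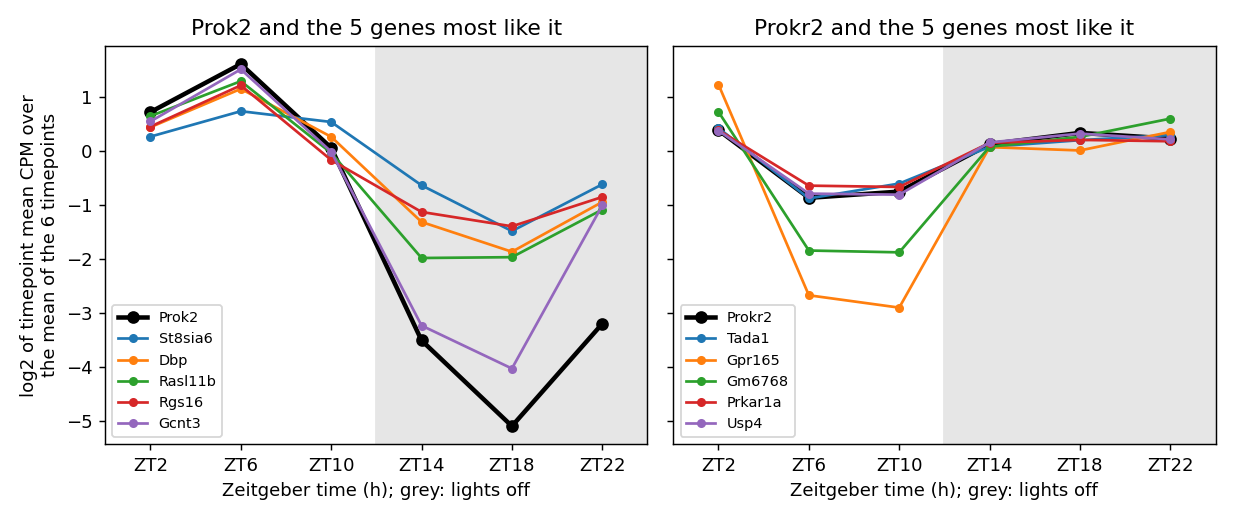
Mean CPM at each timepoint relative to the mean of the 6 timepoints (log2), for Prok2 and Prokr2 (black) and the 5 genes most like each by Pearson correlation over 18 replicates. The genes like Prok2 are highest at ZT6 and low in the dark, with a smaller swing than Prok2, and those like Prokr2 dip at ZT6 and ZT10.

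Of 19 genes listed for signalling of the receptor and proteins linked to it, 13 passed the time test, which 44.0% of all genes passed. In light against dark, 2 were higher (Gnai1 and Gnas) and 7 lower (Gnaq, Gna11, Gnai3, Plcb1, Itpr1, Itpr2 and Arrb1), where 9.56% of all genes were higher and 14.3% lower. The median difference was 0.02 on the log2 scale against -0.13 over all genes tested, and without ZT6 replicate A it was -0.42 against -0.16, so its sign is not settled. Itpr1, the calcium release channel opened by the product of phospholipase C, was 261 ± 32.0 CPM at ZT14 and 33.1 ± 4.85 CPM at ZT6 (edgeR time test, adjusted p = 2.97e-07). Plcb1, the phospholipase C activated by Gq, was 111 ± 30.2 CPM at ZT22 and 32.3 ± 9.21 CPM at ZT6 (edgeR, adjusted p = 3.63e-05). Gna11, a Gq-class alpha subunit, was 277 ± 22.4 CPM at ZT14 and 97.6 ± 49.1 CPM at ZT2 (edgeR, adjusted p = 2.88e-04). Snapin, a SNARE-binding protein, was 92.9 ± 13.7 CPM at ZT10 and 18.0 ± 2.71 CPM at ZT22 (edgeR, adjusted p = 1.16e-07).

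Of 20 clock transcription factors, 16 passed the time test (44.0% of all genes). In light against dark 10 were higher (9.56% of all genes) and 4 lower (14.3%), with a median of 0.44 against -0.13 over all genes. Per2, a repressor in the clock, was 123 ± 60.0 CPM at ZT6 and 10.9 ± 4.02 CPM at ZT22 (edgeR, adjusted p = 3.03e-07). Per1 was 69.97 ± 27.9 CPM at ZT6 and 8.98 ± 0.197 CPM at ZT22 (edgeR, adjusted p = 1.37e-06). Bhlhe41, an E-box-binding repressor, was 663 ± 36.6 CPM at ZT6 and 104 ± 26.1 CPM at ZT22 (edgeR, adjusted p = 1.15e-06). These 3 genes and Dbp had the widest ranges of the list, all with the highest mean at ZT6, as Prok2. Arntl, whose product drives E-box transcription, had its highest mean at ZT14 and its lowest at ZT6 (edgeR, adjusted p = 0.00725).

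Of 14 genes for other secreted SCN factors and their receptors, 12 passed the time test (44.0% of all genes). In light against dark, 4 were higher (9.56% of all genes), all peptide genes (Avp, Vip, Grp and Nms), and 6 were lower (14.3%), namely Tgfa, Clcf1, Cntfr, Lifr, Il6st and Avpr1a. The median was -0.37 against -0.13 over all genes. Avp, which encodes vasopressin, was 454 ± 24.03 CPM at ZT6 and 5.37 ± 3.02 CPM at ZT22, with a range of 6.52 on the log2 scale, close to that of Prok2 (edgeR, adjusted p = 3.25e-10). Unlike Prok2, Avp was low at ZT2, at 12.1 ± 3.45 CPM. Grp, which encodes gastrin-releasing peptide, was 376 ± 19.4 CPM at ZT6 and 39.2 ± 14.3 CPM at ZT22 (edgeR, adjusted p = 1.20e-07). Cntfr, the ciliary neurotrophic factor receptor, was 21.5 ± 5.50 CPM at ZT18 and 2.54 ± 0.953 CPM at ZT2 (edgeR, adjusted p = 1.42e-05), and Clcf1, a ligand of that receptor, stayed at or under 1.20 CPM on average at every timepoint (edgeR, adjusted p = 0.0131).

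The counts by direction depend on the scaling. With libraries scaled to the SCN neuron markers, the median light minus dark difference over all genes moved from -0.13 to -0.81, with 205 genes higher and 9900 lower, and 0 and 15 of the signalling genes, 6 and 9 of the clock factors and 2 and 10 of the secreted factors and receptors were higher and lower. With upper-quartile factors 2336 genes were higher in light and 2081 lower. Prok2 was higher and Prokr2 lower in light under every scaling run.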

How the data were processed

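RNA from laser-captured SCN of 18 pools was amplified with a SMARTer kit and sequenced on 3 lanes each. The authors aligned the reads with GSNAP to mm10 (GRCm38) and counted them per gene with HTSeq 0.5.4p1, and the count table they deposited is not normalized. Amplified reads are not independent molecules, so intervals from counts cover counting error only. The second table the authors deposited is a normalized signal, counts divided by a size factor per column, from which 100% of values gave whole reads (within 0.1 of a read). No deposited column was left unused.

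The 18941 genes that had 1 or more reads in over 6 replicates were fitted in edgeR 4.0.16 (R 4.3.3) with TMM factors and 1 mean per timepoint, and tested by the quasi-likelihood F-test with Benjamini-Hochberg adjustment over all genes and a threshold of 0.05. DESeq2 1.42.0 and limma 3.58.1 were alternatives, and JTK_CYCLE (24 hr period) was rewritten in Python 3.11.15. The scripts were tested on simulated data. log2 CPM used a prior count of 2. Symbols and exon lengths come from GENCODE M21. The genes named are the members, their family, the 5 genes most like each member, up to 4 genes per list with the widest range past the time test, and markers. Arntl and the other genes listed by direction were named after their values were seen. The members and lists were chosen with earlier results of these data known. Replicates are separate pools of mice, and p-values measure the spread between pools.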

Additional observations from a re-analysis of the deposited data

How the results depend on the processing

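Settings other than leaving out a replicate changed few of the results for Prok2 and Prokr2. The time test and the light minus dark difference of Prok2 kept their call under every alternative run. Fitting only the other 4 timepoints, without the ZT6 and ZT10 replicates, left 5425 genes past the time test against 8343. It removed the call of Prokr2 (adjusted p = 0.735) by its construction, since these are the 2 timepoints where Prokr2 was low. With all timepoints in the fit and any 1 replicate left out, the time test of Prokr2 kept its call (edgeR, adjusted p from 1.98e-05 to 0.000303). DESeq2 called the Prok2 differences of ZT10 from ZT6 (-1.58, adjusted p = 0.0347) and of ZT18 from ZT14 (-1.55, adjusted p = 0.0225), where edgeR did not. With only the 2 timepoints compared in the fit, Prok2 at ZT22 against ZT18 (1.92, adjusted p = 0.107) and at ZT2 against ZT22 (3.93, adjusted p = 0.0811) lost its call, and the latter also did with scaling to the SCN neuron markers (3.67, adjusted p = 0.051). Under that scaling Prokr2 differences that were not called changed sign, at ZT18 against ZT14 (-0.0668), ZT2 against ZT22 (-0.0463) and ZT2 against ZT14 (-0.21). With scaling to the qPCR reference genes Prokr2 at ZT14 against ZT10 lost its call (0.54, edgeR, adjusted p = 0.126). At ZT22 against ZT18 Prokr2 changed sign (0.0553), as it did with upper-quartile factors (0.0428). The qPCR scaling summed 9 of the 10 reference genes, since Snrpn was not found among the counted genes. Actb, the most abundant of the 9, averaged 2528 CPM at ZT10 and 3993 CPM at ZT14. JTK_CYCLE for Prokr2 gave 0.112 after adjustment over all genes. The cause of these changes was not tested.

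The replicate block (a term for the letters A, B and C) changed no call of either gene, and left 7847 genes past the time test. With it the edgeR time test had adjusted p = 3.85e-07 for Prok2 and adjusted p = 1.34e-04 for Prokr2. Deviations of same-letter replicates correlated between -0.27 and 0.096 (median 0.002, 45 pairs). Those of different-letter replicates correlated between -0.29 and 0.30 (median -0.0003, 90 pairs), so the letters showed no sign of pairing the samples.

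Leaving out each replicate in turn gave 1.33 to 2.42 for Prok2 at ZT22 against ZT18 (call lost without ZT18 A or ZT22 C), 3.53 to 4.46 at ZT2 against ZT22 (lost without ZT22 B), and for Prokr2 -0.21 to 0.05 at ZT22 against ZT18, -0.0298 to 0.33 at ZT2 against ZT22 and 0.0736 to 0.55 at ZT2 against ZT14 (called only without ZT2 C, adjusted p = 0.0414). JTK_CYCLE for Prokr2 ranged from 0.00627 to 0.106, with p over 0.05 without any 1 of the 6 ZT6 and ZT10 replicates or without ZT18 A, ZT18 B or ZT22 C. Of the 5 genes most like Prok2, 3 to 5 stayed, and of those most like Prokr2, 2 to 5 did. By Spearman rank correlation 3 and 0 stayed. Coding length moved the log2 ratio of Prok2 to Prokr2 to 0.65 at ZT10 and -3.83 at ZT14, and the recovered reads moved it to 0.68 at ZT10. Depth limits Prok2 most at ZT18, where a replicate holds 21 to 115 reads. The alternatives on recovered reads, without the ZT6 and ZT10 replicates, on length and on likeness without a replicate were chosen after seeing the data.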
